A study of Homo sapiens with 4 samples.

Results

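The cadherins were examined in HK-2 cells with and without induction of PRCC-TFE3, a fusion protein found in renal cell carcinoma with Xp11 translocation. The 8 genes CDH1, CDH2, CDH3, CDH4, CDH6, CDH11, CDH13 and CDH16 were taken by name, with earlier results of these data known. They came out of 33886 genes for which the deposited transcript counts could be summed. HK-2 is a line of immortalised cells from the proximal tubule of a human kidney. All 4 cultures carried a Tet-On construct for HA-tagged PRCC-TFE3, in which doxycycline turns on the transgene, and were kept in Advanced DMEM/F-12 with low serum. Doxy(+) cells received 0.2 microg/ml doxycycline for 24 h and Doxy(-) cells received none, with 2 libraries of polyadenylated RNA in each group. The labels do not say whether the numbers 1 and 2 mark clones, days or separate cultures, so the p-values measure the spread between these libraries, which may be technical. Since every culture carried the transgene, a response to doxycycline and a response to PRCC-TFE3 cannot be told apart here, and neither can a change in RNA per cell and a change in the make-up of the culture.

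Cadherins are calcium-dependent adhesion proteins that bind their like on the neighbouring cell, and the cytoplasmic tail of the classical members holds beta-catenin and p120-catenin, which join the junction to actin through alpha-catenin. CDH1 (E-cadherin), CDH2 (N-cadherin), CDH3 (P-cadherin) and CDH4 (R-cadherin) are classical type I cadherins, CDH6 (K-cadherin) and CDH11 (OB-cadherin) are type II, CDH13 (T-cadherin) is held in the membrane by a lipid anchor, and CDH16 is the kidney-specific Ksp-cadherin. In the kidney, proximal tubule cells are known for N-cadherin and for CDH6, which is made early in the developing nephron, whereas E-cadherin and CDH16 are prominent in the distal tubule and collecting duct.

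Reads assigned to genes ranged from 12654233 to 15012743 per library. TFE3, whose transcripts take up reads of the transgene, stood at 34.9 and 36.5 TPM (a transcript level per length, scaled to the same total in each library) in Doxy(-) and at 276 and 249 TPM in Doxy(+), so that all 4 libraries matched their labels. Of 13542 genes tested, 19.4% passed an adjusted p of 0.05 in either direction, 9.81% as higher and 9.59% as lower in Doxy(+). The epithelial keratins and EPCAM were present in all 4 libraries, and EPCAM stood at 131 to 154 TPM. The 14 proximal tubule markers summed to 326 to 378 TPM, nearly all of it from HAVCR1, GGT1 and MIOX, while 3 were at 0 in all 4 libraries and LRP2 (megalin) and AQP1 had at most 1 read in a library. The 8 fibroblast markers summed to 221 to 258 TPM, most of it from LUM, COL3A1 was at 0, and 1 of 3 tested, COL1A1, passed as lower in Doxy(+) (log2 fold change -0.40, adjusted p 0.0403 by edgeR), a call lost without Doxy(-) 1 or either Doxy(+) library (adjusted p 0.0903 to 0.166). The endothelial list summed to 17.4 to 25.3 TPM, the distal tubule and collecting duct list to 18.8 TPM at its lowest, in Doxy(-) 2, and the leukocyte list to at most 2.21 TPM.

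CDH2 and CDH6 were the only members with a sizeable level, and both were lower in Doxy(+). CDH6 transcripts fell to 52.0% of their Doxy(-) level (95% interval 47.7 to 56.6%) and CDH2 transcripts to 73.1% (95% interval 68.4 to 78.2%). CDH16 was low and did not pass the test. CDH1, CDH3 and CDH13 had a few reads per library, and CDH4 and CDH11 had none.

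CDH6 (ENSG00000113361.13, hg38, chr5:31193686-31329146, plus strand) and CDH2 (ENSG00000170558.10, chr18:27932879-28177946, minus strand) each gave reads mainly on a pair of coding transcripts. Stretches that set these apart are shown because the 2 genes carry the changes described here. The isoform values rest on all bases that differ within a pair, untranslated ones included, and the stretches shown are only a part of these. They are spliced coding bases read from hg38 with GENCODE release 44, 5′ to 3′ in the sense of the gene. Capitals mark the bases that belong to the named transcript alone within its pair, and lower case marks 21 coding bases that the pair shares.
CDH6-201: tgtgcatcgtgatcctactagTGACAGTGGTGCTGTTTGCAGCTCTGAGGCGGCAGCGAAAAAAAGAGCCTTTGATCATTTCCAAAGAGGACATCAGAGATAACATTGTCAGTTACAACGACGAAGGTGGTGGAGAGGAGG
CDH6-205: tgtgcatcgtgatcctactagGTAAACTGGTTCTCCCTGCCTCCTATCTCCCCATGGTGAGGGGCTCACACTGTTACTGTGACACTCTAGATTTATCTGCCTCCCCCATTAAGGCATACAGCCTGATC
CDH2-201: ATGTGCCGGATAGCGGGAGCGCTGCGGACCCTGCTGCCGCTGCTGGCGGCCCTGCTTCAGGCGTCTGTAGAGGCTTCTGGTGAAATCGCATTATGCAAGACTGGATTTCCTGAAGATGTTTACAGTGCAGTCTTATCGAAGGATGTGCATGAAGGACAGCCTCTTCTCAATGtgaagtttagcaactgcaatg
CDH2-202: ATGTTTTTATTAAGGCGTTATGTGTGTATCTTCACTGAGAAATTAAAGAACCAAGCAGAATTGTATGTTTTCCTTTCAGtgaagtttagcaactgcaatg
The last coding base that CDH6-201 and CDH6-205 share is at position 31317924 of chromosome 5. There CDH6-201 is spliced to its last exon, with 488 coding bases at chr5:31322818-31323305, of which the first 120 are printed, and CDH6-205 reads on into what is intron for CDH6-201, for 107 bases at chr5:31317925-31318031. In all, CDH6-201 has 2370 coding bases (790 codons) and CDH6-205 has 1824 (608 codons), so the pair also differs before that position. The CDH2 pair differs at the other end. CDH2-201 begins with 60 coding bases at chr18:28176963-28177022 and 112 at chr18:28147673-28147784, CDH2-202 begins with 79 at chr18:28036470-28036548, and both enter the shared coding exon at position 28013909. They have 906 and 875 codons.

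First, CDH6, the type II cadherin of the early nephron, was examined. The estimated counts were 1840 and 2145 in Doxy(-) 1 and 2 and 999 and 974 in Doxy(+) 1 and 2. Scaled for library size, the levels were 143 and 146 CPM (counts scaled to a common library total) without doxycycline and 77.6 and 72.5 CPM with it. Both Doxy(+) libraries lay far below both Doxy(-) libraries, and the replicates of a group differed by much less than the groups did. The means were 144 ± 2.26 CPM and 75.0 ± 3.59 CPM (SD, n = 2 each). The log2 fold change, Doxy(+) over Doxy(-), was -0.94 (SE 0.0505, 95% interval -1.07 to -0.82), with an adjusted p of 0.000224 by edgeR's quasi-likelihood test. In this fit CDH6 passed the test on p but not a further limit of a 2-fold change. CDH6 is also one of the genes measured by qPCR in the study, in UOK124 renal carcinoma cells with and without ARID2, not in HK-2. Those genes were picked in part from these libraries, so that the call is not independent evidence. Of the 13542 genes tested, 186 (1.37%) had a more negative log2 fold change than CDH6, and of the 9609 tested genes that averaged 10 CPM or more, 38 did.

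Next, CDH2, the classical cadherin of the proximal tubule, was examined. The estimated counts were 2694 and 3123 in Doxy(-) and 1939 and 2116 in Doxy(+). The levels were 209 and 213 CPM in Doxy(-) and 151 and 158 CPM in Doxy(+). The groups did not overlap, and the gap between them was several times the gap within either. The means were 211 ± 2.49 CPM and 154 ± 4.96 CPM (SD, n = 2 each), and the log2 fold change was -0.45 (SE 0.0397, 95% interval -0.55 to -0.36), with an adjusted p of 0.00107 by edgeR. A more negative log2 fold change was found for 868 genes (6.41%). CDH2 and CDH6 were thus 2 of 3 members tested that passed as lower in Doxy(+), beside 9.59% of all genes tested, and no member passed as higher. The 3 members tested had a median log2 fold change of -0.51, beside 0.00 over all genes tested. Since CDH6 was known from these libraries beforehand, neither this count nor this median is an independent comparison with all genes. With the 2-fold limit added, no member was called, beside 0.473% of all genes called as lower and 1.5% called as higher.

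Some general epithelial markers were also lower in Doxy(+), and some proximal tubule markers were higher. Over all genes tested, 9.59% passed as lower and 9.81% as higher. The 8 epithelial markers summed to 1942 and 1928 TPM in Doxy(-) and to 1583 and 1593 TPM in Doxy(+), and 4 of them (KRT8, KRT18, KRT19 and CLDN1) passed as lower, KRT18 not without either Doxy(+) library (adjusted p 0.059 and 0.0959 by edgeR). The other 4 (EPCAM, KRT7, CLDN4 and OCLN) did not pass, with log2 fold changes from -0.23 to 0.38, and none of the 8 was at 0 in all libraries. The proximal tubule markers summed to 326 and 340 TPM in Doxy(-) and to 377 and 378 TPM in Doxy(+). Of 7 tested, 3 passed as higher and 0 as lower, namely the tubular enzymes MIOX, GATM and GGT1, with log2 fold changes of 0.50, 0.64 and 0.25 and adjusted p of 0.0057, 0.0231 and 0.0407 by edgeR. GGT1 lost the call whichever library was left out (adjusted p 0.0534 to 0.214 by edgeR), and GATM without Doxy(-) 1 or either Doxy(+) library (adjusted p 0.0529 to 0.122). The other 4 tested did not pass, and they went in both directions. SLC34A1 had a log2 fold change of -1.64 on few reads, 17 and 16 in Doxy(-) and 3 and 7 in Doxy(+) (adjusted p 0.0762 by edgeR). HAVCR1 had -0.10, SLC5A2 -0.06 and CUBN 0.36. The part of these shifts in the CDH2 and CDH6 results was not tested.

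**Figure D1:**
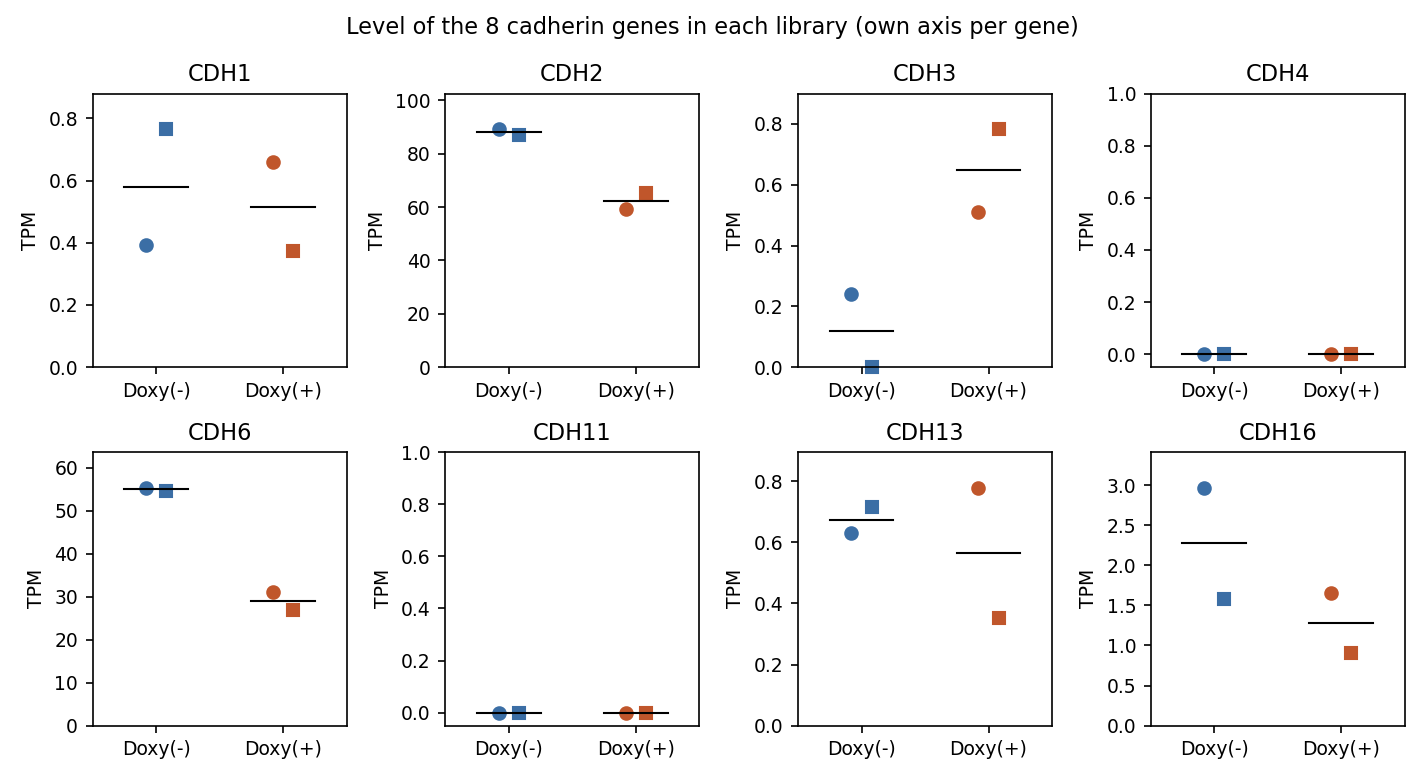
Level of each of the 8 cadherin genes in TPM (vertical axis, its own scale for each gene) in the Doxy(-) and Doxy(+) libraries, with circles for libraries numbered 1, squares for those numbered 2 and a line at the group mean. CDH2 and CDH6 are separated by group, CDH1, CDH13 and CDH16 overlap, CDH3 is below 0.80 TPM throughout, and CDH4 and CDH11 are at 0.

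CDH16, the kidney-specific cadherin (ENSG00000166589.13, chr16:66908122-66918917, minus strand), was measured at a low level. It had 46.0 and 39.0 reads in Doxy(-) and 34.0 and 23.0 reads in Doxy(+). These were 3.57 and 2.65 CPM against 2.64 and 1.71 CPM, so that the highest Doxy(+) library all but met the lowest Doxy(-) library. By TPM the groups overlapped, at 2.97 and 1.58 in Doxy(-) and 1.65 and 0.903 in Doxy(+). The log2 fold change was -0.51 (SE 0.324, 95% interval -1.30 to 0.28), with an adjusted p of 0.329 by edgeR. At this depth neither a fall as large as that of CDH6 nor no change lies outside the interval.

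CDH1, which encodes the E-cadherin of epithelial junctions (ENSG00000039068.20, chr16:68737292-68835537, plus strand), was close to undetected. Its estimated counts were 10.5 and 9.40 without doxycycline and 8.19 and 6.14 with it, too few to enter the test. By TPM the libraries stood at 0.393 and 0.765 in Doxy(-) and 0.660 and 0.372 in Doxy(+), and the groups overlapped. The canonical transcript CDH1-201 received 3.09 reads in Doxy(-) 2 and none in the other libraries. The remaining reads were placed on CDH1-204, CDH1-206 and CDH1-210. E-cadherin transcripts thus made up a small share of the cadherin transcripts in both groups, and no difference between groups was detectable at this depth.

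CDH3, the P-cadherin gene that lies 9823 bases upstream of CDH1 on the same strand (ENSG00000062038.15, chr16:68636189-68727468), had 1 and 0 reads in Doxy(-) and 2.13 and 3.38 in Doxy(+). Both Doxy(+) libraries were above both Doxy(-) libraries, but 3 of the 4 values were at or below 3 reads, the most that a count of 0 allows, and the gene was not tested. All of these reads were placed on CDH3-208 and CDH3-210, which are 563 and 576 bases long, and none on the canonical CDH3-201. CDH13, the lipid-anchored cadherin (ENSG00000140945.17, chr16:82626965-83800640, plus strand), had 4.23 and 8 reads in Doxy(-) and 5 and 2.77 in Doxy(+). The groups overlapped. Those reads lay on 4 short transcripts from the 5′ part of the gene, all ending at or before position 83181094, and the canonical CDH13 transcript was not analysed here. A count near the floor on short transcripts does not show that a full-length P- or T-cadherin transcript was made.

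CDH4 (ENSG00000179242.16, chr20:61252261-61940617, plus strand) and CDH11, the cadherin of mesenchymal cells and bone (ENSG00000140937.14, chr16:64943753-65126112, minus strand), had 0 reads in all 4 libraries. For CDH11 this covered 18 transcripts. For CDH4 it rested on 1 transcript, and the canonical one was not analysed here. A count of 0 allows up to 3 reads, which is 0.204 to 0.233 CPM in these libraries, and this limit covers counting error only. Of the 8 members, 5 lie on chromosome 16, namely CDH1, CDH3, CDH11, CDH13 and CDH16, and none of these 5 had over 46.0 reads in a library.

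The order of the members by level was the same in every library for the leading genes. CDH2 came first, between 59.4 and 89.2 TPM over the 4 libraries, and CDH6 came next, between 26.8 and 55.3 TPM. These ranges do not overlap. Among the 23 CDH genes examined, only CDH24, a type II cadherin outside the 8, came near them, at 22.3 to 23.3 TPM. CDH16 (0.903 to 2.97 TPM) could not be told apart from CDH26 and CDH8, and CDH13, CDH1 and CDH3 could not be told apart from each other. Summed over the 8 members, the level was 149 and 145 TPM in Doxy(-) and 94.2 and 94.4 TPM in Doxy(+).

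The make-up of this pool differed between the groups in the share of CDH6 more than in the share of CDH2. CDH6 made up 31.5% and 31.5% of the summed TPM of the 23 CDH genes in Doxy(-), and 25.6% and 21.9% in Doxy(+). CDH2 made up 50.8% and 50.3% in Doxy(-) and 48.8% and 53.2% in Doxy(+), with overlap between the groups. CDH24, which did not pass the test (log2 fold change -0.04, 95% interval -0.17 to 0.10, adjusted p 0.695 by edgeR), made up 12.9% and 13.0% and then 18.3% and 19.0%. By TPM, CDH2 exceeded CDH6 by a ratio of 1.61 and 1.59 without doxycycline and of 1.91 and 2.43 with it. Both Doxy(+) libraries had the higher ratio, a log2 difference of 0.42, but 2 libraries against 2 cannot reach a p below 0.333, which is the value of the exact two-sided permutation test.

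**Figure D2:**
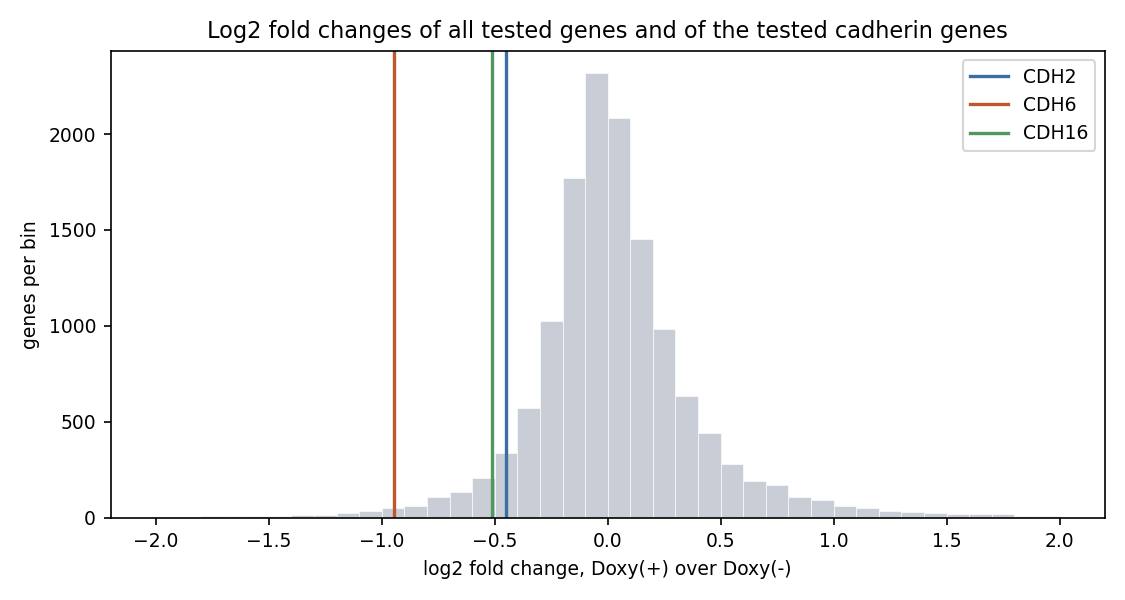
Number of genes (vertical axis) in bins of log2 fold change, Doxy(+) over Doxy(-) (horizontal axis), for the genes tested, with 87 genes beyond the ends of the axis, and lines at the 3 tested members. CDH6 at -0.94 lies in the lower tail with 1.37% of genes below it, and CDH2 at -0.45 has 6.41% below it.

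The leading transcripts of CDH6 were both lower in Doxy(+). CDH6-201, the canonical transcript, was estimated at 14.2 and 14.5 TPM in Doxy(-) and 7.43 and 7.38 TPM in Doxy(+). CDH6-205, the transcript with the shorter coding end shown above, was estimated at 29.1 and 29.8 TPM in Doxy(-) and 17.8 and 16.1 TPM in Doxy(+). For each, both Doxy(+) libraries lay below both Doxy(-) libraries. By estimated count, CDH6-201 held 58.0% and 58.5% of the gene's reads in Doxy(-) and 54.4% and 58.0% in Doxy(+), and CDH6-205 held 35.2% and 35.4%, then 38.5% and 37.3%. For CDH6-201 the shares met between the groups, and for CDH6-205 both Doxy(+) libraries were higher by a few percent. The isoforms were not tested, because the files hold no measure of how surely reads were divided between transcripts. The minor transcript CDH6-204 was placed at 29.2 and 24.2 reads in Doxy(-) and 9.33 and 0.83 in Doxy(+), a larger relative difference on few reads, and CDH6-203 overlapped between the groups.

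Within CDH2, CDH2-202 was the leading transcript in every library. It was estimated at 51.5 and 53.9 TPM in Doxy(-) and 35.1 and 39.9 TPM in Doxy(+). CDH2-201, the canonical transcript, was estimated at 25.1 and 24.2 TPM in Doxy(-) and 22.1 and 19.9 TPM in Doxy(+). Both were lower in both Doxy(+) libraries. By count, CDH2-202 held 62.6% and 64.8% of reads in Doxy(-) and 57.5% and 62.7% in Doxy(+), so that the groups overlapped in share. CDH2-203 was a minor product with 52.5 and 43.6 reads in Doxy(-) and 9.24 and 22.9 in Doxy(+). For CDH16 the division was unstable. CDH16-204 held 69.4%, 7.33%, 18.8% and 40.5% of the gene's reads in Doxy(-) 1 and 2 and Doxy(+) 1 and 2, although the gene's sum varied only from 23.0 to 46.0 reads, and the canonical CDH16-201 received none.

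**Figure D3:**
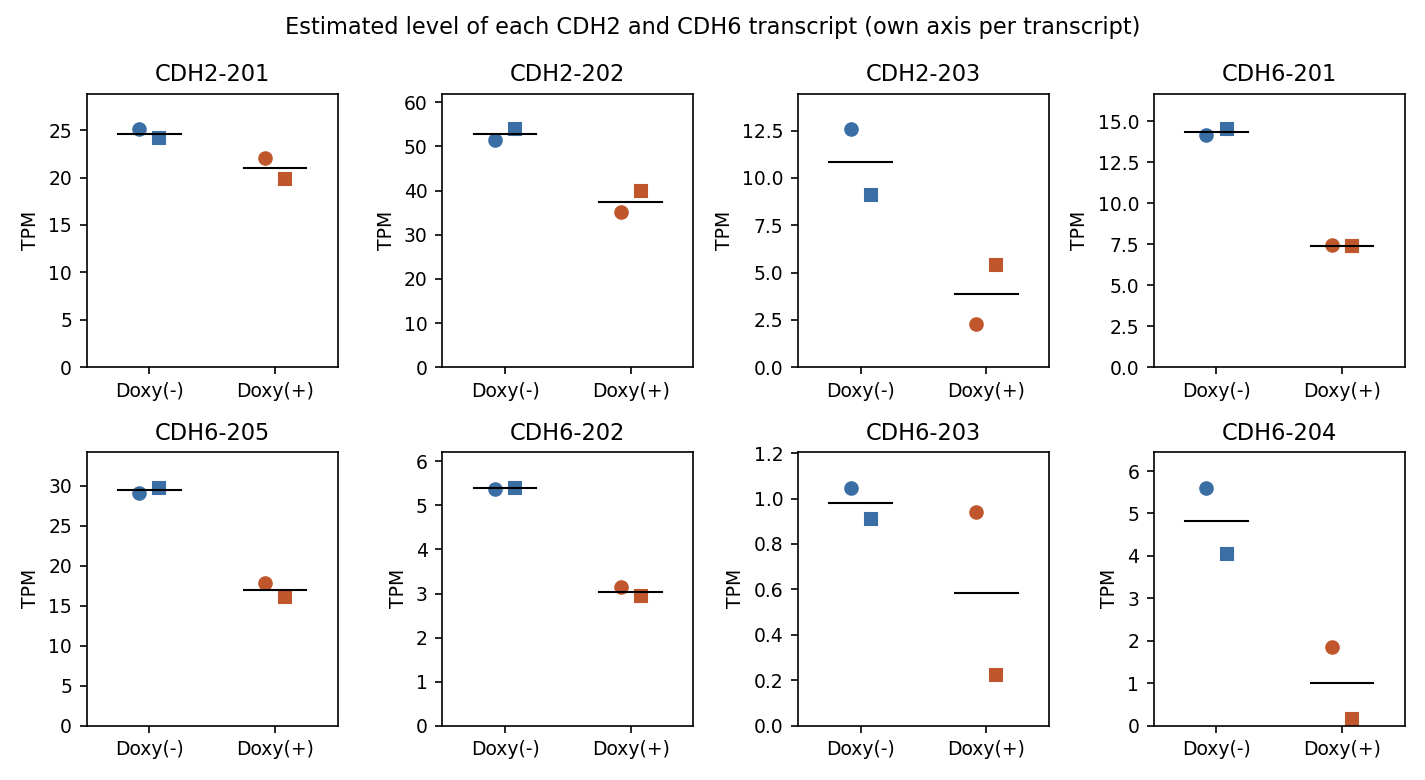
Estimated level in TPM (vertical axis, its own scale for each transcript) of the CDH2 and CDH6 transcripts with reads, in the Doxy(-) and Doxy(+) libraries, with circles for libraries numbered 1, squares for those numbered 2 and a line at the group mean. The Doxy(+) points lie below the Doxy(-) points for CDH2-201, CDH2-202, CDH6-201 and CDH6-205, and CDH6-203 overlaps.

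Since CDH2-201 and CDH2-202 start at different places, 140545 bases apart, the sequences before both starts were read. They are shown because the isoform values put reads on both. Each run holds the 250 bases before the RefSeq start on GRCh38.p14, on the minus strand. Capitals mark matches to CANNTG, the general form of an E-box, and to TATAAA.
CDH2 window chr18:28177131-28177380: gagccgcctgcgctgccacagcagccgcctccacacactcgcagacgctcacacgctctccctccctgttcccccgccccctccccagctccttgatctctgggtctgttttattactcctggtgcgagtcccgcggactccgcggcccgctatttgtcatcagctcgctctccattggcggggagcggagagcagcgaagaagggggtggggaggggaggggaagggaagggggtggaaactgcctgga
CDH2 window chr18:28036642-28036891: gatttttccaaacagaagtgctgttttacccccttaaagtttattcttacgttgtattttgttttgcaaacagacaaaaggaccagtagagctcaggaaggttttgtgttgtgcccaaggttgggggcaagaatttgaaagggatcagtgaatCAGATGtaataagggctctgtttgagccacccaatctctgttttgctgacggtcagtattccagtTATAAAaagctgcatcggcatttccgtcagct
The first window, before the start of CDH2-201, is 66% G and C and holds no CANNTG and no TATAAA. The second, before the start near CDH2-202, is 42% G and C and holds 1 CANNTG, 97 bases before the start, and 1 TATAAA, 32 bases before it. Neither holds CACGTG, a form of CANNTG, on either strand. Among 35116 RefSeq windows of the same length, 6.35% hold CACGTG, 61.8% hold CANNTG and 10.7% hold TATAAA on either strand. These are matches of letters and describe the windows only. Of the 8 members, CDH2 and CDH4 had a window in the table used.

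Next, the genes whose pattern over the 4 libraries was closest to that of CDH6 were sought among 9608 other tested genes that averaged 10 CPM or more. Closeness was the Euclidean distance between log2 CPM profiles, each centred on its own mean, over 4 libraries, so that it rests mostly on the fold change. The closest was CAV1, which encodes the coat protein of caveolae, at 171 and 181 CPM in Doxy(-) and 93.0 and 86.6 CPM in Doxy(+), with a distance of 0.0436. ABCC3, an organic anion exporter, followed at 41.8 and 42.8 CPM against 21.8 and 21.1 CPM, with a distance of 0.0491, and PMEPA1, a gene known to respond to TGF-beta, at 75.2 and 81.8 CPM against 43.0 and 41.6 CPM, with a distance of 0.0884. Their log2 fold changes were -0.97, -0.98 and -0.89, on either side of the -0.94 of CDH6.

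The cytoplasmic partners of the cadherins were compared in the same fit. The core catenins did not pass the test. CTNNB1 (beta-catenin) had a log2 fold change of 0.04 (95% interval -0.04 to 0.12), CTNNA1 (alpha-catenin) of -0.02 (95% interval -0.11 to 0.06) and CTNND1 (p120-catenin) of 0.08 (95% interval -0.01 to 0.18), with adjusted p of 0.49, 0.675 and 0.204 by edgeR. Each of these intervals leaves out a change as large as that of CDH2. Of the 14 genes tested in the list of 17 catenins and partners, 7 passed as lower and none as higher, beside 9.59% and 9.81% of all genes tested, with a median log2 fold change of -0.13 beside 0.00 over all genes. The 7 were JUP (plakoglobin, which can stand in for beta-catenin), VCL (vinculin) and the actin cross-linkers ACTN1 and ACTN4, the scaffold TJP1, the alpha-catenin relative CTNNAL1 and the p120 relative PKP4. JUP had 104 and 112 CPM in Doxy(-) and 78.7 and 81.6 CPM in Doxy(+), a log2 fold change of -0.43 with an adjusted p of 0.00439 by edgeR. VCL had 832 and 854 CPM against 659 and 631 CPM, a log2 fold change of -0.39 with an adjusted p of 0.00104 by edgeR. In both genes all Doxy(+) values were below all Doxy(-) values. The other 5 had log2 fold changes between -0.30 and -0.22. TJP1 and CTNNAL1 lost the call without Doxy(+) 2 (adjusted p 0.0549 and 0.0836 by edgeR), and JUP, ACTN4, TJP1 and CTNNAL1 lost it by limma on log2 TPM (adjusted p 0.0555 to 0.296).

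The remaining adhesion genes were read from the same fit, in which 9.59% of all genes tested passed as lower and 9.81% as higher. Of the 15 other CDH genes, 2 could be tested, CDH24 and CDH26, and neither passed. Of the 11 desmosomal genes, 6 were tested and 1 passed, PKP2 (plakophilin), which was higher in Doxy(+) with a log2 fold change of 0.41 and an adjusted p of 0.0449 by edgeR, and which lost the call whichever of the 4 libraries was left out (adjusted p 0.0574 to 0.177). The desmosomal cadherin DSG2 stood at 191 and 194 CPM in Doxy(-) and 182 and 186 CPM in Doxy(+), and its log2 fold change of -0.07 (95% interval -0.15 to 0.02) did not pass.

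Of the 14 atypical cadherins and protocadherins tested among 25, 4 passed as lower and 2 as higher, beside 9.59% and 9.81% of all genes tested, with a median log2 fold change of 0.24. FAT1, a giant cadherin known for actin control, had 869 and 864 CPM in Doxy(-) and 605 and 595 CPM in Doxy(+), a log2 fold change of -0.53 with an adjusted p of 0.000203 by edgeR. CELSR1 and CELSR3, which act in planar polarity, and CLSTN1 (calsyntenin) also fell, with log2 fold changes of -0.47, -0.51 and -0.29. CLSTN3 rose by 0.45, and FAT2 by 0.93 from 2.48 and 2.93 CPM to 5.13 and 5.21 CPM. The FAT2 call was lost whichever library was left out (adjusted p 0.0506 to 0.127 by edgeR), and those of CELSR3 and CLSTN3 when counts were rebuilt from TPM (adjusted p 0.116 and 0.135 by edgeR). Of the nectins, adhesion proteins of the same junctions, NECTIN3 (log2 fold change -0.32) and NECTIN2 (-0.21) passed as lower among 3 tested. NECTIN2 lost the call whichever library was left out (adjusted p 0.0538 to 0.203 by edgeR), and NECTIN3 without Doxy(+) 1 (adjusted p 0.0964).

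**Figure D4:**
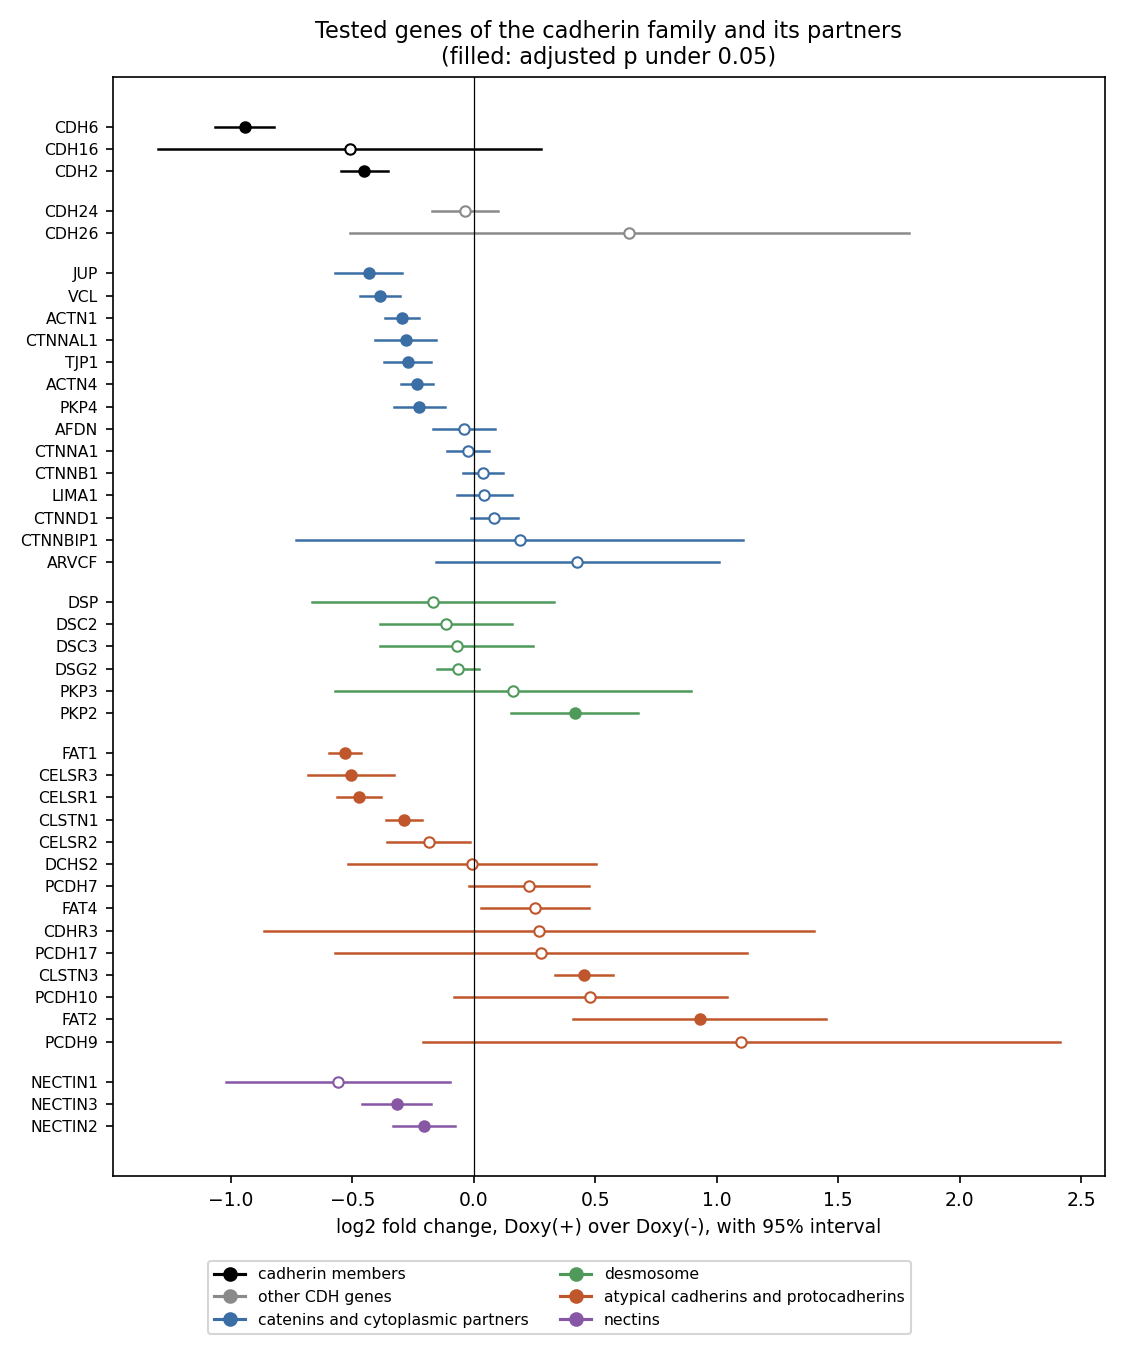
Log2 fold change, Doxy(+) over Doxy(-), with its 95% interval (horizontal axis) for the tested genes of the cadherin family and its junction partners, one per line, coloured by list, with filled points at an adjusted p under 0.05. CDH6 at -0.94 and CDH2 at -0.45 are filled and negative, and CTNNB1 at 0.04, CTNNA1 at -0.02 and CTNND1 at 0.08 are open and near 0.

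Finally, genes that act on cadherins were read. Of the 14 genes for cleavage and turnover, 13 were tested, with a median of -0.03. Among those tested, 2 passed as lower and 1 as higher, beside 9.59% and 9.81% of all genes tested. ADAM10, a protease that sheds the outer part of several cadherins, had 195 and 195 CPM in Doxy(-) and 162 and 164 CPM in Doxy(+), a log2 fold change of -0.25 with an adjusted p of 0.00513 by edgeR, which became 0.0502 without Doxy(+) 1. ADAM15 also passed as lower (-0.24) and ADAM9 as higher (0.46). ADAM15 lost the call without Doxy(-) 1 or either Doxy(+) library (adjusted p 0.0573 to 0.149 by edgeR), and ADAM9 without Doxy(+) 2 (adjusted p 0.0581).

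Of 11 repressors of E-cadherin transcription, 8 had enough reads to be tested, TWIST2 and GSC were at 0 in all 4 libraries, and SNAI3 had at most 5 reads. ZEB2 stood at 46.5 and 59.7 CPM in Doxy(-) and 48.7 and 48.5 CPM in Doxy(+), ZEB1 at 21.2 to 26.4 CPM over the 4 libraries, and SNAI1 and SNAI2 at 9.01 to 15.8 CPM. Of 8 tested, 0 passed by edgeR, and 2 (SNAI2 and TCF3) had an unadjusted p under 0.05. Among kidney transcription factors, PAX8, which is kept on in renal tubule cells, stood at 565 and 573 CPM in Doxy(-) and 584 and 605 CPM in Doxy(+), and its log2 fold change of 0.06 (95% interval -0.01 to 0.14) did not pass. The other 3 tested did not pass either.

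Several members overlap other annotated genes. GENCODE places antisense RNAs over exons of CDH1, CDH2, CDH3, CDH6 and CDH13, and whether the counting used the strand is not stated, so reads of a gene and of its antisense partner cannot be told apart for these. An exon of CDH6 also overlaps the pseudogene DUX4L51, which had at most 1.54 reads in a library.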

How the data were processed

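RNA of 4 HK-2 cultures with inducible PRCC-TFE3 was sequenced from stranded polyadenylated libraries, single-end, as the study's methods state. The submitters' processing notes name Trim Galore 0.6.6, cutadapt 2.5, STAR 2.7.9a and hg38, and the methods add RSEM and DESeq2, but the deposited tables have the columns of kallisto. The quantifier's version, its annotation and its use of strand are not given in the sources used here. The authors deposited an estimated count (expected reads, not normalized) and a TPM for each of 180253 transcripts per library. Such a quantifier splits ambiguous reads over the transcripts of a gene, so isoform values are less certain than gene sums.

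Transcripts were matched to GENCODE release 44 (150691, 83.6%), and estimated counts and TPM were summed per gene symbol. Unmatched transcripts carried 9.66 to 9.89% of counts and were left out. No unmatched transcript was a copy of a transcript of the 8 cadherins. Totals per library were 14042545 to 16618401 reads, and with no molecular identifiers limits from counts cover counting error only.

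Summed counts were rounded and tested over all genes with edgeR 4.0.16 in R 4.3.3 (filterByExpr, TMM, glmQLFit, glmQLFTest, group as the only term, Benjamini-Hochberg adjustment, call at an adjusted p under 0.05). The standard error is that implied by the F statistic. The fit was tested on simulated data. CPM is scaled by TMM and serves comparisons of 1 gene between libraries, and TPM serves levels between genes. The biological coefficient of variation was 6.47%. A chi-square of counts per degree of freedom was 4.02 for the Doxy(-) pair and 2.88 for the Doxy(+) pair, so replicates were separate libraries.

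The members and lists were chosen with earlier results of these data known. All members were named, as were TFE3, the genes of each list that passed, up to the 6 with the smallest p, and the 3 genes closest to CDH6. DSG2, PKP4, EPCAM and other markers that did not pass, CTNNB1, CTNNA1, CTNND1, the repressors and PAX8 were named beyond that rule for their role. FOXC2 and LHX1 were not analysed here. Alternatives were RLE and upper-quartile scaling, 2 other filters, DESeq2 1.42.0, a replicate block, leaving out each library, limma 3.58.1 on log2(TPM + 1) and log2(TPM + 0.1), length-scaled counts, 2 treatments of unmatched transcripts, and 2 other call limits.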

Additional observations from a re-analysis of the deposited data

How the results depend on the processing

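CDH2 and CDH6 kept their direction and an adjusted p under 0.05 in every alternative with that threshold, with log2 fold changes of -0.54 to -0.42 for CDH2 and -0.99 to -0.90 for CDH6 over all alternatives. With the 2-fold limit added, CDH2 (-0.45) and CDH6 (-0.94) were no longer called, so that 0 members were called as lower, since both changes are below that limit by construction. Leaving out each library in turn gave -0.48 to -0.42 for CDH2, -0.99 to -0.90 for CDH6 and -0.85 to -0.23 for CDH16. CDH16 was not called in any alternative, with an adjusted p between 0.255 and 0.755 and log2 fold changes from -0.87 to -0.23. The mean ratio of CDH2 to CDH6 was 1.89 ± 0.390 (SD, n = 4) by TPM and 1.76 by CPM.

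The replicate number was used as a replicate block in a paired fit, which gave -0.94 for CDH6, -0.45 for CDH2 and -0.53 for CDH16 and changed no call of a member, and ended the calls of PKP2 and NECTIN2. Over genes, the deviations of Doxy(-) 1 and Doxy(+) 1 from their group means were not correlated (correlation -0.0091). This value cannot show whether same-numbered libraries share a clone, day or culture.

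Of 405 alternative values for 27 other named genes, 304 kept their call, 101 lost it and 0 changed direction. The stricter call limits were not among these values, and the cause of the losses was not tested. With DESeq2 the calls of PKP2, FAT2, NECTIN2, NECTIN3, ADAM9 and ADAM15 were among those lost. Depth limits CDH1, CDH3, CDH13 and CDH16, and 2 libraries per group limit every isoform and ratio.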
